A study of Mus musculus with 7 samples.

Results

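The genes described here are 52 cell cycle genes, 24 that act in S phase, when the genome is copied, and 28 that act in mitosis, when the copies are parted. They were set against each other and followed array by array. A gene was read from the probe sets that the platform annotation gives exactly 1 gene symbol, using the brightest one on average across all 7 arrays. This gave values for 51 of the 52 genes, among 22180 genes in all: all 24 S phase genes and 27 of the 28 mitosis genes. Ncapg, a condensin subunit gene, shares its probe set with another gene and is left out. This rule for reading a gene used no difference between groups, but the genes themselves were chosen with earlier results of these data known.

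Expression was measured on 1-colour arrays, 1 array per RNA sample. The blastema group held 3 samples from C57Bl/6 mice, each of the cell mass at the digit tip 2 weeks after amputation. The uninjured group held 4 samples of intact digits from C57Bl/6 mice. No genotype other than the strain and no treatment other than amputation is given, and the labels do not state ages, sexes or pooling of digits. The labels call the samples of a group biological replicates. All values are levels or differences on the log2 scale, and a difference is always blastema minus uninjured. A gene was called when its limma p-value, adjusted by the Benjamini-Hochberg method over all 22180 genes, was under 0.05.

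Before DNA is copied, the ring-shaped MCM helicase is loaded onto origins by Cdc6 and Cdt1 and is then switched on together with Cdc45 and the GINS complex. Polymerases follow it with the sliding clamp PCNA. Genes of this machinery are largely driven by E2F transcription factors. Genes of mitosis are switched on later, in G2, through the CHR element (cell cycle genes homology region) and CCAAT boxes, which bind the DREAM and MuvB complexes and NF-Y. High levels of both groups mark tissue with many cycling cells, which in intact skin include the basal epidermis and the nail and hair matrix. Because each array measured a whole tissue, fewer cycling cells and less of an RNA per cell cannot be told apart.

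Promoters of 6 of the genes are shown because they carry the motif letters that part the mitosis genes from the S phase genes. Each is the 250 bases before the gene's start in the RefSeq annotation of the mouse genome build GRCm38.p6, read 5′ to 3′ on the gene's strand. Capitals mark the letters of the CHR element (TTTGAA), the CCAAT box (CCAAT) or an E2F motif, taken as TTTGGCGC, TTTCGCGC, TTTGCCGC or TTTCCCGC, each on either strand. Ccnb2 lies on the minus strand at chr9:70421555-70421804, Kif11 on the plus strand at chr19:37376132-37376381 and Mki67 on the minus strand at chr7:135716380-135716629. Mcm6 lies on the minus strand at chr1:128359706-128359955, Pola1 on the minus strand at chrX:93632156-93632405 and Mcm5 on the plus strand at chr8:75109259-75109508.
Ccnb2: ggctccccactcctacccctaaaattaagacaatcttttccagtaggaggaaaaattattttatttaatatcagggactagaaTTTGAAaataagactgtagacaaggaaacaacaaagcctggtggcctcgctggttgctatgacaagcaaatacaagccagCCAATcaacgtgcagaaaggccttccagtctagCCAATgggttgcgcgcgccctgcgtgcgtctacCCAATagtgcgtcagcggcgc
Kif11: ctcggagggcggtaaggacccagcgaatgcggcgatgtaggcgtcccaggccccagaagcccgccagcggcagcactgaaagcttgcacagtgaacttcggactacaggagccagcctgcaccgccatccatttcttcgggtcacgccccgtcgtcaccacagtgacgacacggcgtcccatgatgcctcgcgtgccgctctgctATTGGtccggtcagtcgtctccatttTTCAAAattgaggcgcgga
Mki67: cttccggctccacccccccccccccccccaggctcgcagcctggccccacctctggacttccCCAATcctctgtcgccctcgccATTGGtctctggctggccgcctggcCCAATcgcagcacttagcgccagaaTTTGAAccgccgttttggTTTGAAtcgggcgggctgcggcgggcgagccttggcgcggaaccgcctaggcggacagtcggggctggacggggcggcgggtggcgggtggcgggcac
Mcm6: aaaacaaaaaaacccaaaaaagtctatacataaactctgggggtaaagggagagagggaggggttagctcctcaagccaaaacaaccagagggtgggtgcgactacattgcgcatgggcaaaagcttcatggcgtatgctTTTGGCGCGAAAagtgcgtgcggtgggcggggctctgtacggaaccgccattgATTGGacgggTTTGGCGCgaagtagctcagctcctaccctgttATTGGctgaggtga
Pola1: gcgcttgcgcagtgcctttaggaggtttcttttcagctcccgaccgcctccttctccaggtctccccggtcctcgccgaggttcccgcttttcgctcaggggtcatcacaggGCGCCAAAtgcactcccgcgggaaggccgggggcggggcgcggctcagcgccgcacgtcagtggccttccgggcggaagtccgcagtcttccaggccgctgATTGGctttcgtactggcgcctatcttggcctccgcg
Mcm5: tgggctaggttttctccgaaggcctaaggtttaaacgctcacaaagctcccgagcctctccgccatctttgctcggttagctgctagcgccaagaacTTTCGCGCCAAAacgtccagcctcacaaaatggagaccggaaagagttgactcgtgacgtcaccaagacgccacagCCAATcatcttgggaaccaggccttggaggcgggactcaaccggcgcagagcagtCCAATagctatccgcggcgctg

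The first 3 promoters belong to mitosis genes and hold CHR letters together with CCAAT boxes. Matches past the start are not printed: Ccnb2 has further CHR letters at bases 5 to 10 past it, and Mcm5 a CCAAT box at bases 7 to 11. Those of Mcm6, Pola1 and Mcm5, which belong to S phase genes, hold E2F letters and CCAAT boxes and no CHR letters. In Mcm6 and in Mcm5 a pair of E2F matches on opposite strands overlap by 4 bases, so that they stand in 1 run of capitals.

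Counted in windows of 300 bases, from 250 before to 50 after the start, promoters were at hand for 23 mitosis genes and 21 S phase genes. CHR letters stood in 18 of 23 mitosis promoters (78.3%), in 3 of 21 S phase promoters (14.3%) and in 18.1% of 27025 promoters in all. E2F letters stood in 1 mitosis promoter (4.3%), that of Cdk1, in 9 S phase promoters (42.9%) and in 2.3% of all promoters. The CCAAT box did not part the lists, at 78.3% of mitosis and 71.4% of S phase promoters, against 37.9% of all promoters. CHR and CCAAT letters stood together in 16 mitosis promoters (69.6%), against 7.1% of all promoters.

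The same letters were counted in 2 wider lists of further cell cycle genes. CHR letters stood in 30 of 53 promoters of further mitosis genes (56.6%) and in 6 of 32 of further S phase genes (18.8%). E2F letters stood in 7 of these mitosis promoters (13.2%) and in 12 of these S phase promoters (37.5%). A match is a run of letters and not a measured binding site. The median log2 fold change (blastema minus uninjured) was 0.16 in the 18 mitosis genes with CHR letters and 0.27 in the 5 without. In S phase genes it was -0.24 in the 9 with E2F letters and -0.08 in the 12 without.

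**Figure D1:**
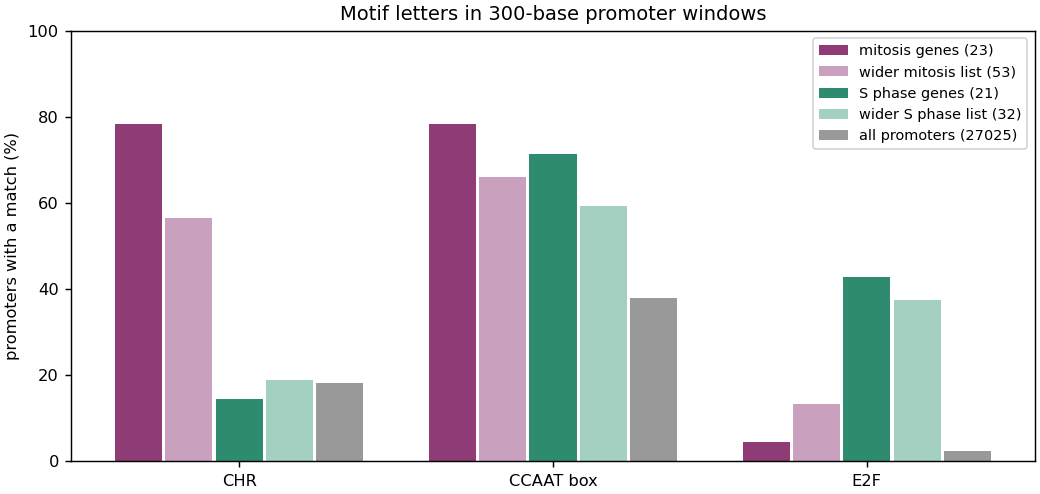
Share of promoters (%) that hold each motif's letters on either strand of the 300-base window, for mitosis genes, S phase genes, the wider lists and all promoters, with the number of promoters in brackets. CHR letters stood in 78.3% of mitosis promoters and 14.3% of S phase promoters, and E2F letters in 4.3% and 42.9%.

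No cell cycle gene of either list passed the test between blastema and intact digit. Of the 24 S phase genes 0 were called higher and 0 lower, and of the 27 mitosis genes 0 were called higher and 0 lower. Over all genes 9.64% were called, 4.98% higher and 4.66% lower. At an unadjusted limma p under 0.05, 2 mitosis genes were higher, Plk1 and Ccnb2, and 3 S phase genes were lower, Pola1, Prim1 and Slbp. Over all genes 12.2% were higher and 12.7% lower at that threshold, so that these counts were near or below the background in share. The adjusted p-values of the members by limma ran from 0.0674 (Plk1) to 1 (Rrm1).

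The estimates of the lists lay on opposite sides of 0. In 23 of 27 mitosis genes the estimate was above 0, with a median log2 fold change of 0.23, and in 20 of 24 S phase genes it was below 0, with a median of -0.16. The median over all genes was -0.01. The estimates of 26 of the 27 mitosis genes lay above the S phase median, and that of 1 of the 24 S phase genes, Rrm2, lay above the mitosis median. These sides were already known when the genes were chosen, and they are given as a description.

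The 95% intervals of most members stayed within a 2-fold change, although in a smaller share than over all genes. Fen1, Gins1, Cdc6 and Bub1 lay at or below the background proxy described below. Their intervals, narrow in Fen1 (-0.11 to 0.12) and wider in Bub1 (-0.15 to 0.69), may reflect that floor and do not bound a difference in RNA. The 95% interval lay between a 2-fold fall and a 2-fold rise for all 24 S phase genes and for 20 of 27 mitosis genes, against 93.2% of all genes. The upper limit was below a 2-fold rise in 44 of the 51 genes, against 95.8% of all genes. The 7 mitosis genes whose interval reached a 2-fold rise were Ccnb2, Plk1, Ccna2, Nuf2, Ndc80, Prc1 and Cenpe. The members' standard errors were 0.05 to 0.26 in S phase genes and 0.10 to 0.34 in mitosis genes.

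**Figure D2:**
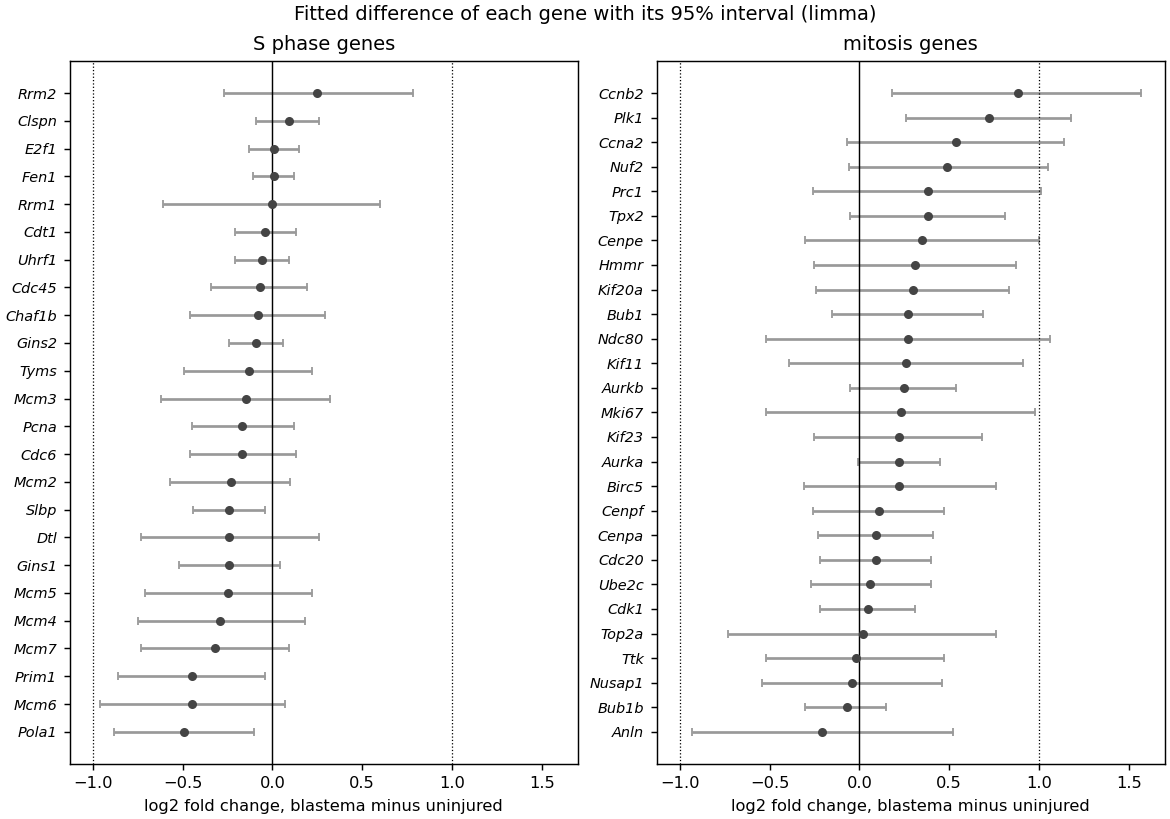
Log2 fold change (blastema minus uninjured, horizontal axis) of each S phase gene (left) and each mitosis gene (right), with its 95% interval from limma (n = 3 blastema and 4 uninjured arrays). Dotted lines mark 2-fold changes, which all 24 S phase intervals and 20 of 27 mitosis intervals stay within.

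Licensing of origins was measured by 8 genes, the 6 subunits of the MCM helicase and its loaders Cdc6 and Cdt1. All 8 estimates were below 0, from -0.45 (Mcm6) to -0.04 (Cdt1), and none was called. Leaving out 1 array at a time, Mcm3 ran from -0.27 to 0.03 and Cdt1 from -0.07 to 0.01, and the other 6 stayed below 0. Mcm6, a helicase subunit, lay at 6.42, 7.03 and 7.04 on blastema arrays 1 to 3, against 6.96, 7.61, 7.04 and 7.50 on uninjured arrays 1 to 4. Its 3 blastema values lay in or below the lower part of the uninjured range, and the groups overlapped (log2 fold change -0.45 ± 0.22 SE, limma adjusted p = 0.26).

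Mcm7, another subunit, lay at 6.71, 6.69 and 6.57 on blastema arrays 1 to 3 and at 6.56, 7.34, 6.86 and 7.13 on uninjured arrays 1 to 4. Uninjured array 1 alone lay below the blastema values, and the others above them (-0.32 ± 0.18, adjusted p = 0.317 by limma). Mcm2 lay at 6.40, 6.63 and 6.59 on the blastema arrays, against 6.63, 7.15, 6.68 and 6.63 on the uninjured arrays (-0.23 ± 0.14, limma adjusted p = 0.362). A single array, uninjured array 2, was set apart by its high Mcm2 value. Cdt1, which is degraded as soon as copying starts, differed least, by -0.04 (95% interval -0.21 to 0.13).

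The replication fork was measured by 7 genes: Gins1 and Gins2 of the GINS complex, Cdc45, the clamp gene Pcna, the flap endonuclease gene Fen1, and Pola1 and Prim1 of the polymerase alpha-primase complex, which starts each new strand. The lowest estimates of all members were among them. Pola1, the catalytic subunit of the polymerase, lay at 5.61, 5.79 and 6.15 on blastema arrays 1 to 3, against 6.03, 6.60, 6.29 and 6.44 on uninjured arrays 1 to 4. Uninjured array 1 alone lay below the highest blastema value (log2 fold change -0.49 ± 0.17 SE, 0.712-fold, limma adjusted p = 0.123).

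Prim1, the primase subunit, lay at 6.29, 6.82 and 7.0 on blastema arrays 1 to 3, against 6.94, 7.36, 7.16 and 7.16 on uninjured arrays 1 to 4. Again uninjured array 1 alone fell within the blastema range (-0.45 ± 0.18, limma adjusted p = 0.164). Pcna, the brightest of the S phase genes, lay at 8.61, 8.74 and 8.82 in blastema and at 8.61, 9.12, 8.89 and 8.93 in uninjured digit (-0.17 ± 0.12, limma adjusted p = 0.444). The 2 arrays numbered 1 held its lowest values. Gins1 lay lowest of all members, at group means of 4.36 in blastema and 4.60 in uninjured digit.

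Fen1 carried almost no information here. Its level was identical, to every deposited decimal, on 6 of the 7 arrays (5.35), and 5.33 on uninjured array 2. Such ties are common in these data: 14 of 24 S phase genes, 13 of 27 mitosis genes and 52.93% of all genes had the same value on 2 or more arrays. On 3 or more arrays it was 9 S phase genes, 3 mitosis genes and 29.51% of all genes. Fen1 and Gins1 were, with Cdc6, the S phase genes whose mean stayed at or below the background proxy of 5.52 in both groups. That proxy was set at the 95th percentile of 1105 olfactory receptor genes, each taken at its mean over the arrays, as a stand-in for genes not in use. The mitosis gene under it in both groups was Bub1.

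Nucleotide supply was measured by 3 genes, the ribonucleotide reductase subunits Rrm1 and Rrm2 and the thymidylate synthase gene Tyms. Rrm2, whose protein is made in S phase and destroyed in mitosis, had the highest estimate of the S phase genes. It lay at 6.21, 6.88 and 7.12 on blastema arrays 1 to 3, against 6.22, 6.73, 6.35 and 6.63 on uninjured arrays 1 to 4. Blastema arrays 2 and 3 were above all uninjured arrays and blastema array 1 was below them (0.25 ± 0.23, limma adjusted p = 0.538). Its other probe set, at means of 3.14 in blastema and 3.32 in uninjured digit, differed by -0.18. Rrm1 differed by 0.00 (95% interval -0.61 to 0.60) and Tyms by -0.13 (-0.49 to 0.22).

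Chromatin copying was measured by Uhrf1, which carries DNA methylation to the new strand, Chaf1b, a histone chaperone subunit, and Slbp, which binds histone mRNA. Slbp was the only S phase gene whose groups did not overlap, at 6.87, 7.13 and 7.05 on the blastema arrays, against 7.13, 7.33, 7.22 and 7.33 on the uninjured arrays. Before rounding, blastema array 2 lay just below uninjured array 1 (-0.24 ± 0.09, limma adjusted p = 0.139). Over all genes the groups did not overlap, with blastema lower, in 10.6%. Uhrf1 (-0.06) and Chaf1b (-0.08) differed less.

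Control of S phase was measured by 3 genes. E2f1, an activating E2F factor, lay at 5.69, 5.74 and 5.68 in blastema and at 5.68, 5.77, 5.63 and 5.69 in uninjured digit (0.01, 95% interval -0.13 to 0.15). Clspn, which relays replication stress to the checkpoint kinase Chk1, lay at 6.06, 6.24 and 6.08 in blastema and at 6.08, 6.08, 6.08 and 5.92 in uninjured digit (0.09 ± 0.08, limma adjusted p = 0.529). Dtl, part of the ubiquitin ligase that degrades Cdt1, differed by -0.24 (-0.73 to 0.26) and spread more widely, with 5.77 to 6.58 on the uninjured arrays.

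**Figure D3:**
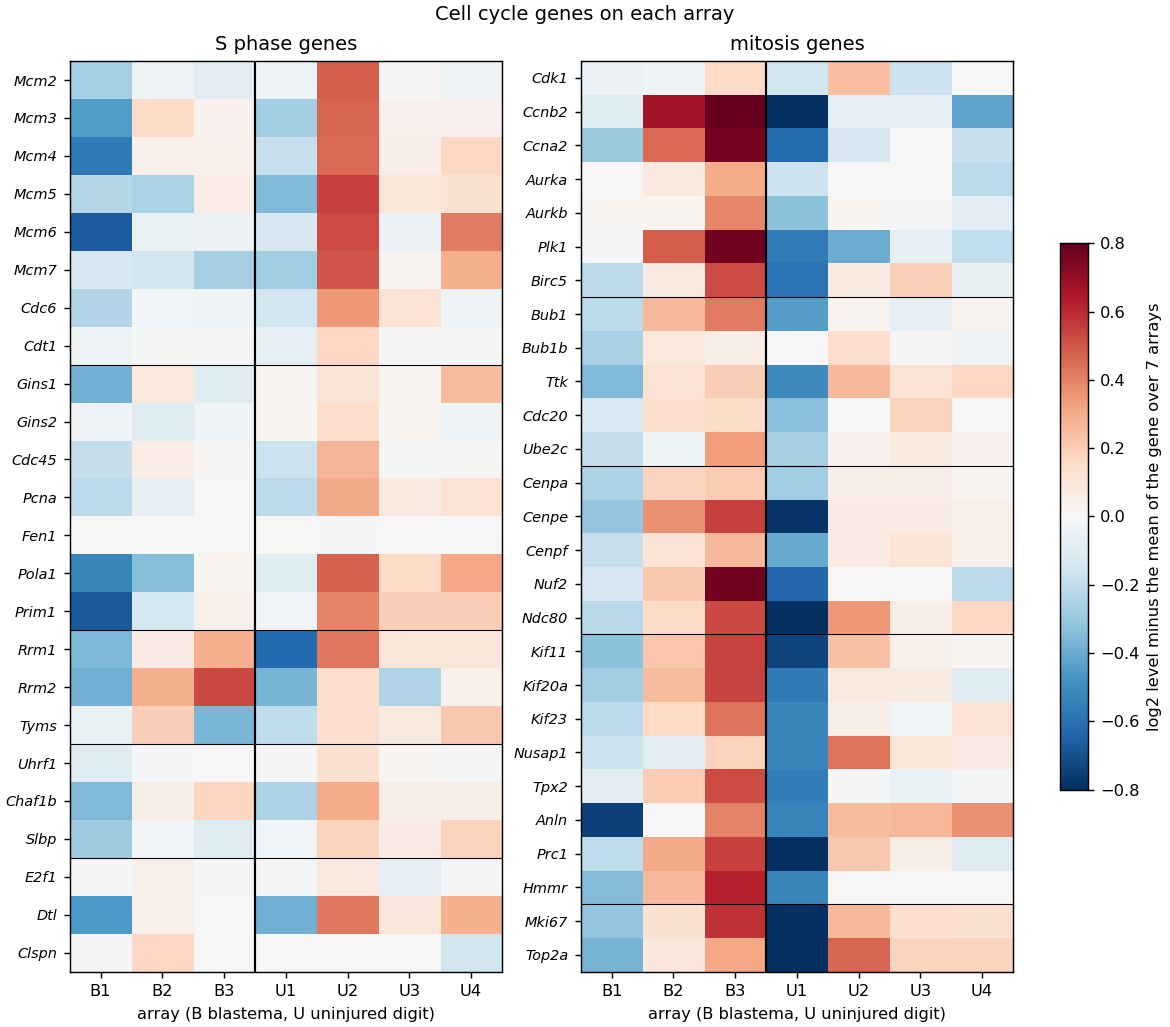
Log2 level of each gene on each array minus that gene's mean over the 7 arrays (colour, with the largest differences shown in the end colours), with blastema arrays 1 to 3 left of uninjured arrays 1 to 4 and horizontal lines between roles. The lowest value was on uninjured array 1 in 23 of 27 mitosis genes, and on blastema array 1 in 15 of 24 S phase genes.

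The highest estimates of the mitosis genes were those of Ccnb2, Plk1 and Ccna2, which are cyclins and a kinase. The 7 genes of this role, among them Birc5 and Aurkb of the chromosomal passenger complex, averaged 6.54, 6.88 and 7.18 on blastema arrays 1 to 3, against 6.16, 6.59, 6.61 and 6.47 on uninjured arrays 1 to 4. All 7 estimates were above 0 and none was called. Their median was 0.25, beside 0.27 for kinetochore genes and 0.28 for spindle, motor and cytokinesis genes. Ccnb2, a B-type cyclin that activates Cdk1, lay at 7.45, 8.22 and 8.50 on the blastema arrays, against 6.62, 7.48, 7.48 and 7.13 on the uninjured arrays. Blastema arrays 2 and 3 were above all uninjured arrays, and blastema array 1 was within their range (log2 fold change 0.88 ± 0.30 SE, 1.84-fold, limma adjusted p = 0.118). It passed without blastema array 1 (limma adjusted p = 0.0434), without both arrays numbered 1 (0.0284) and with a replicate block (0.0388), and over all alternatives its adjusted p ran from 0.0284 to 0.34.

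Plk1, the Polo-like kinase of spindle assembly and mitotic entry, was the only mitosis gene whose groups did not overlap. It lay at 6.81, 7.31 and 7.60 on blastema arrays 1 to 3, against 6.27, 6.43, 6.75 and 6.63 on uninjured arrays 1 to 4. The gap between the lowest blastema and the highest uninjured value was small beside the spread of either group (0.72 ± 0.20, 1.65-fold, limma adjusted p = 0.0674). Over all genes the groups did not overlap, with blastema higher, in 10.4%. Its adjusted p crossed the threshold without blastema array 1 (0.0206), with array weights (0.0293), with a filter on dim genes (0.0438) and over the genes above the background proxy (0.0363), all by limma. It did so too without both arrays numbered 1 (0.0318) and with a replicate block (0.049). Over all alternatives it ran from 0.0206 to 0.203.

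Ccna2, the cyclin of S phase and early mitosis, lay at 7.25, 8.0 and 8.31 on the blastema arrays, against 6.93, 7.42, 7.55 and 7.37 on the uninjured arrays. Its groups overlapped through blastema array 1 (0.54 ± 0.26, limma adjusted p = 0.253), without which it passed (0.0452, and 0.0327 without both arrays numbered 1, over all alternatives 0.0327 to 0.563). Cdk1, the kinase that these cyclins switch on, did not share their spread, at 6.49, 6.51 and 6.70 in blastema and 6.39, 6.78, 6.37 and 6.54 in uninjured digit. Its difference was 0.05 (95% interval -0.22 to 0.31). Aurka (0.22), Aurkb (0.25) and Birc5 (0.22) lay between.

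Among 5 genes of the spindle checkpoint and of the anaphase-promoting complex, which ends metaphase, none was called, and 4 had estimates between -0.07 and 0.09. Bub1, Bub1b and Ttk, kinases or related proteins of the checkpoint, differed by 0.27, -0.07 and -0.02. Cdc20 and Ube2c, the activator and an E2 enzyme of the complex, differed by 0.09 and 0.06. Bub1b lay at 5.80, 6.14 and 6.11 in blastema and 6.06, 6.20, 6.07 and 6.03 in uninjured digit. Ttk lay at 6.12, 6.59 and 6.67 in blastema and 5.97, 6.73, 6.59 and 6.64 in uninjured digit, so that its low values were on both arrays numbered 1.

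All 5 kinetochore genes had estimates above 0, from 0.09 (Cenpa, the centromeric histone) to 0.49 (Nuf2), although Ndc80 (-0.03 to 0.45) and Cenpf (-0.01 to 0.23) reached below 0 when single arrays were left out. Nuf2, which with Ndc80 holds spindle microtubules, lay at 6.72, 7.07 and 7.63 on the blastema arrays, against 6.23, 6.85, 6.85 and 6.64 on the uninjured arrays. Blastema array 1 lay within the uninjured range (0.49 ± 0.24, limma adjusted p = 0.253). Ndc80, its partner in the same complex, differed by 0.27 (95% interval -0.52 to 1.06). The motor Cenpe and the kinetochore protein Cenpf differed by 0.35 and 0.11.

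Of the 8 genes of the spindle, its motors and cytokinesis, 6 had estimates above 0. Tpx2, an activator of Aurora A, and Prc1, which bundles the midzone, both differed by 0.38, Hmmr by 0.31, and the kinesins Kif20a by 0.30, Kif11 by 0.26 and Kif23 by 0.22. Anln, a cytokinesis protein that binds actin, had the lowest estimate of the mitosis genes. It lay at 6.66, 7.40 and 7.80 in blastema and 6.88, 7.66, 7.67 and 7.77 in uninjured digit (-0.21 ± 0.31, limma adjusted p = 0.728), and blastema array 3 alone was above the uninjured arrays. Nusap1, which binds spindle microtubules, lay at 6.64, 6.72 and 7.0 in blastema and 6.29, 7.25, 6.91 and 6.88 in uninjured digit (-0.04 ± 0.21, limma adjusted p = 0.931).

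Common markers of cycling cells overlapped between the groups. Mki67, which coats mitotic chromosomes and is the antigen of the Ki-67 stain, lay at 8.45, 8.88 and 9.34 on blastema arrays 1 to 3, against 7.86, 9.02, 8.89 and 8.88 on uninjured arrays 1 to 4. The step between uninjured array 1 and the other uninjured arrays was larger than the difference between groups (0.23 ± 0.32, limma adjusted p = 0.711), which was -0.04 without that array. Top2a, the topoisomerase that untangles chromosomes, lay at 6.98, 7.44 and 7.66 in blastema and at 6.50, 7.82, 7.53 and 7.53 in uninjured digit (0.02 ± 0.32, limma adjusted p = 0.984).

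**Figure D4:**
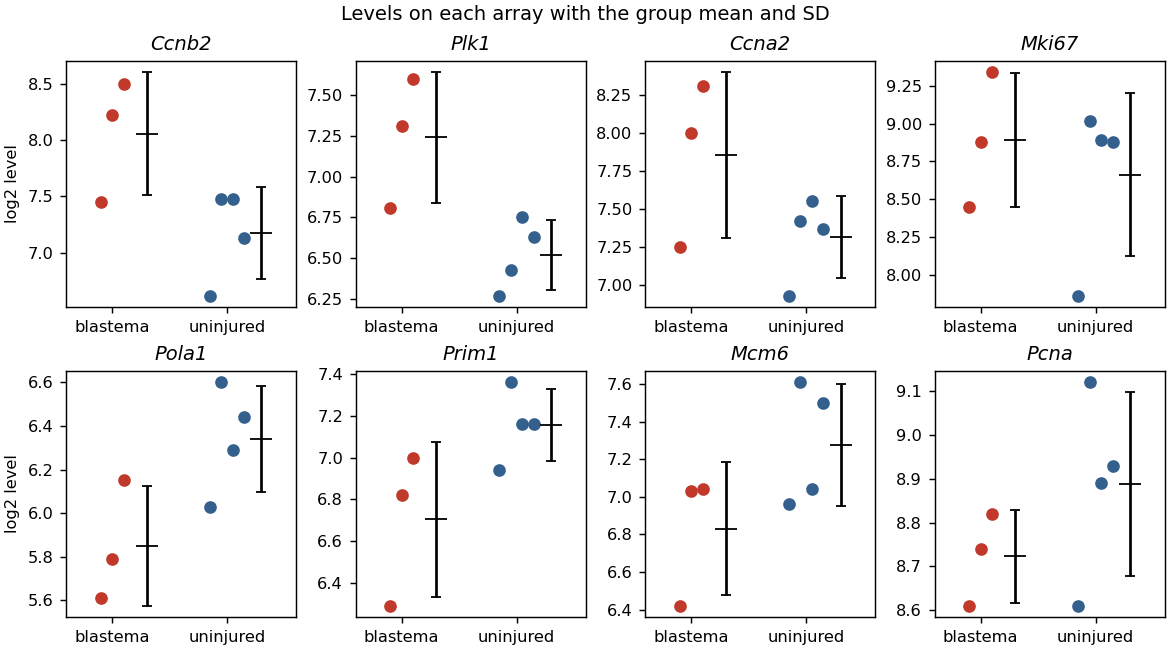
Log2 level (vertical axis, a scale of its own in each panel) of 4 mitosis genes (top) and 4 S phase genes (bottom) on the 3 blastema arrays (red) and the 4 uninjured arrays (blue), in array order, with the group mean and SD. The groups overlap in all panels except that of Plk1.

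Arrays of a group differed from each other as much as the groups did. In all 51 members the range within blastema or within uninjured digit, or both, exceeded the difference between the group means, as it did in 86.1% of all genes. In mitosis genes the median range over the 3 blastema arrays was 0.68 and over the 4 uninjured arrays 0.62, against 0.22 and 0.29 in all genes. In S phase genes these ranges were 0.28 and 0.50. Within blastema the lowest value was on array 1 in 26 of 27 mitosis genes, and the highest on array 3 in 26.

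Within uninjured digit array 1 was lowest in 24 of 27 mitosis genes and in 17 of 24 S phase genes. The high end differed between the lists: uninjured array 2 held the highest value of all 7 arrays in 19 of 24 S phase genes and in 5 of 27 mitosis genes. Blastema array 3 held it in 1 S phase gene and 21 mitosis genes. The median mitosis gene was 0.68 higher on blastema array 3 than on blastema array 1, and 0.55 higher on the mean of uninjured arrays 2 to 4 than on uninjured array 1. For all genes these medians were 0.00 and -0.02.

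The mean of the 27 mitosis genes was 6.51, 6.91 and 7.17 on blastema arrays 1 to 3, against 6.19, 6.83, 6.77 and 6.72 on uninjured arrays 1 to 4. That of the 24 S phase genes was 6.16, 6.44 and 6.44, against 6.28, 6.73, 6.47 and 6.54. Both list means overlapped between the groups. The difference of the 2 means within each array did not: mitosis minus S phase was 0.35, 0.47 and 0.73 on the blastema arrays, against -0.09, 0.10, 0.30 and 0.18 on the uninjured arrays.

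The separation was narrow, with 0.35 on blastema array 1 beside 0.30 on uninjured array 3, and the means differed by 0.39. Scaling an array up or down moves both lists together and leaves this difference as it is. With the 46 genes whose mean over all arrays was above the background proxy it was 0.27, 0.39 and 0.64 in blastema and -0.15, 0.00, 0.22 and 0.09 in uninjured digit. The genes were chosen with results of these arrays known, so no p-value is given for it.

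The wider lists did not show the same separation. Over 65 further mitosis genes and 41 further S phase genes, mitosis minus S phase was -0.10, 0.05 and 0.10 on the blastema arrays, against -0.16, -0.06, 0.03 and 0.01 on the uninjured arrays, and the groups overlapped. The median log2 fold change was 0.01 in the further mitosis genes and -0.05 in the further S phase genes. On uninjured array 1 the wider mitosis mean was low as well, at 5.88 beside 6.21 to 6.29 on the other uninjured arrays.

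**Figure D5:**
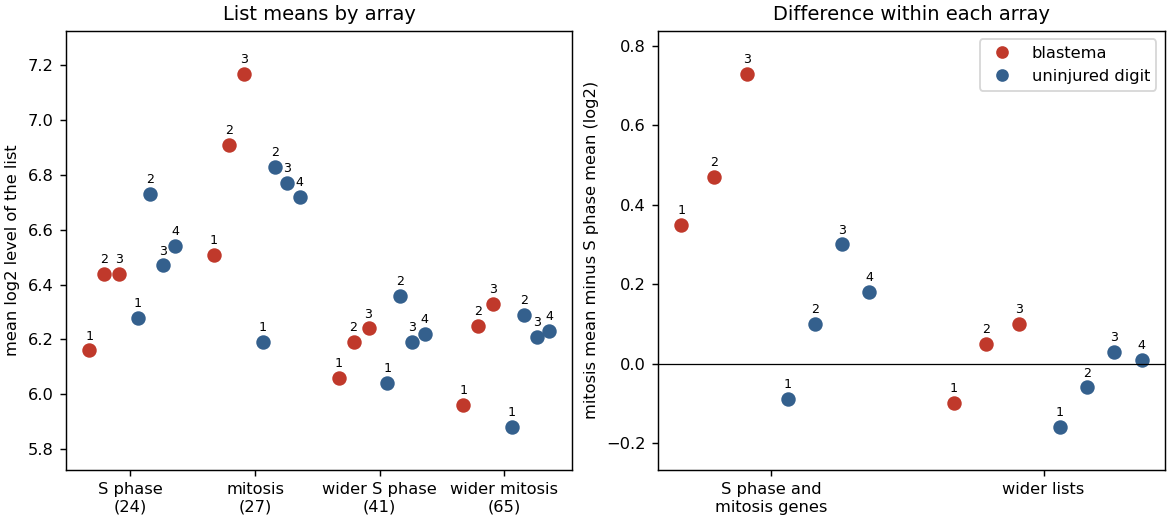
Left, mean log2 level of each list on each array; right, mean of the mitosis list minus mean of the S phase list within each array. Red points are blastema, blue points uninjured digit, small figures are array numbers and figures in brackets are gene numbers; blastema lies above uninjured digit on the right in the S phase and mitosis genes (0.35 to 0.73, against -0.09 to 0.30) and overlaps with it in the wider lists.

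In the wider lists 3 genes were called. Of 41 S phase genes 2 were lower and 0 higher, and of 65 mitosis genes 1 was higher and 0 lower, set against 4.66% and 4.98% of all genes. Rfc3, a subunit of the loader of PCNA, lay at 5.22, 5.71 and 5.50 in blastema, against 5.91, 6.18, 5.95 and 6.14 in uninjured digit, and fell by 0.57 (SE 0.13, limma adjusted p = 0.0362). The blastema mean of Rfc3, 5.48, lay below the background proxy of 5.52, so that floor may limit the size of its fall. Mcm8, a helicase of DNA repair related to the MCM ring, lay at 5.88, 5.90 and 6.07 in blastema, against 6.45, 6.69, 6.22 and 6.48 in uninjured digit, and fell by 0.51 (SE 0.11, limma adjusted p = 0.0346). The groups did not overlap in either gene.

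Troap, whose protein binds spindle microtubules, was the mitosis gene that rose. It lay at 6.42, 6.52 and 6.50 in blastema, against 6.00, 6.13, 5.99 and 6.13 in uninjured digit (0.42 ± 0.07, 1.34-fold, limma adjusted p = 0.0107). Its groups did not overlap. The calls of all 3 genes were lost with a replicate block (limma adjusted p = 0.0558 for Troap, 0.0566 for Rfc3 and 0.137 for Mcm8). Whether the replicate numbers pair the arrays is not settled. Scaled to reference genes, Troap differed by 0.02 (limma adjusted p = 0.862). Troap also missed the threshold without blastema array 2 (limma adjusted p = 0.0506). When single arrays were left out, Mcm8 kept its call for uninjured array 3 alone (0.028, otherwise 0.0653 to 0.122) and Rfc3 for blastema array 2 alone (0.0424, otherwise 0.0514 to 0.117).

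Further genes of the wider lists, named after their values were seen, lay on either side of 0. E2f8, an E2F factor that represses, lay at 6.60, 6.79 and 7.31 in blastema, against 5.44, 6.37, 6.27 and 6.52 in uninjured digit (0.75 ± 0.28, limma adjusted p = 0.154), without overlap. Kif18b, a kinesin that shortens microtubules, differed by 0.39 ± 0.10 (limma adjusted p = 0.0647), also without overlap. In the 41 wider S phase genes the groups did not overlap in 1 with blastema higher and 4 with blastema lower. In the 65 wider mitosis genes these counts were 2 and 0, against 10.4% and 10.6% of all genes. Hmgb2, a chromatin protein of cycling cells, lay lower in blastema, at 7.20, 7.56 and 7.70, against 7.48, 8.04, 7.98 and 8.21 (-0.44 ± 0.19, limma adjusted p = 0.204).

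Levels of cell type markers differed between the groups. Numbers of a cell type and RNA per cell cannot be told apart here. Of the marker genes 6 of 8 for fibroblasts, 6 of 6 for osteoblasts, 6 of 7 for osteoclasts and 4 of 7 for macrophages were called higher, and 6 of 8 for cornified epidermis lower. Fibroblast markers averaged 10.45 to 11.02 on the blastema arrays, against 8.06 to 9.09 on the uninjured arrays. Basal epidermis markers averaged 9.45 to 9.73 against 9.76 to 9.88, with 0 of 7 called higher and 1 lower, Krt15 (-2.30). Of the 7 markers 4 had estimates above 0, and their median was 0.07. Nail and hair matrix markers averaged 9.98 to 10.38 on the blastema arrays, against 10.21 to 10.70 on the uninjured arrays, with 0 of 7 called higher and 1 lower. Of 6 endothelial markers 2 were called higher, of 4 Schwann cell markers 1 lower, and of 5 marrow and lymphocyte markers 0. Mmp9, an osteoclast protease, rose by 4.59 on the log2 scale (SE 0.32, limma adjusted p = 0.00126), and Krt2, a keratin of cornified epidermis, fell by 2.69 (SE 0.52, limma adjusted p = 0.0206).

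Within blastema the osteoclast, macrophage and endothelial lists were, like the mitosis genes, lowest on array 1 and highest on array 3. The marrow and lymphocyte mean was too, but its rise lay mainly in S100a8 (6.39, 8.66 and 9.02 on blastema arrays 1 to 3). Mpo fell (5.03, 4.94 and 4.89). Cd3e (5.57, 5.57 and 5.61), Cd79a (4.60, 4.59 and 4.64) and Elane (4.79, 4.62 and 4.83) moved less than S100a8. Osteoclast markers averaged 7.33, 7.80 and 8.14, macrophage markers 6.84, 7.09 and 7.30 and endothelial markers 7.03, 7.51 and 7.72 on blastema arrays 1 to 3. On uninjured arrays 1 to 4 these means were 5.53, 5.74, 5.60 and 5.82 for osteoclasts, 6.42, 6.55, 6.29 and 6.48 for macrophages, and 6.26, 6.89, 6.48 and 6.84 for endothelium. Marrow and lymphocyte markers averaged 5.27, 5.68 and 5.8 on blastema arrays 1 to 3, and 5.24, 5.13, 5.19 and 5.1 on uninjured arrays 1 to 4. Within uninjured digit the endothelial list shared the low array 1 and the high array 2 of the mitosis genes. The macrophage list was highest on array 2 and lowest on array 3. The osteoclast list was lowest on array 1 and highest on array 4, and the marrow and lymphocyte list was highest on array 1. The fibroblast, osteoblast, basal epidermis and cornified epidermis lists were also lowest on blastema array 1, but highest on array 2. On blastema arrays 1 to 3 fibroblast markers averaged 10.45, 11.02 and 11.01, and osteoblast markers 8.32, 8.82 and 8.67. Basal epidermis markers averaged 9.45, 9.73 and 9.53 there, and cornified epidermis markers 9.90, 10.07 and 9.94. Nail and hair matrix markers fell instead, at 10.38, 10.15 and 9.98 on blastema arrays 1 to 3. On uninjured arrays 1 to 4 they averaged 10.7, 10.38, 10.21 and 10.26. The mean of the Schwann cell markers also fell slightly from blastema array 1 to 3 (6.17, 6.14 and 6.11), but its markers went both ways. Erbb3 fell (8.54, 8.26 and 7.97), and Sox10 was highest on array 1 (5.65, 5.37 and 5.48). Ngfr (5.71, 5.94 and 6.03) and S100b (4.80, 4.97 and 4.97) were lowest on array 1. Log2 array levels have no true 0. Of the osteoclast, macrophage and endothelial lists 1 marker, Calcr, lay below the background proxy in both groups. Of the 5 marrow and lymphocyte markers 3 did. The part of tissue make-up in the cell cycle levels was not tested.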

How the data were processed

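Per the labels' protocols, 400 ng of total RNA per sample was made into cDNA, and the label was biotin. The deposited values are log2 levels of 41345 probe sets, for which the submitters' processing notes name oligo and RMA and no version. The lowest value was 0.66, the highest 13.70, and the array medians lay between 5.53 and 5.58. The table held 0 columns of other samples. Arrays have no read depth, and their number limits the precision.

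The platform annotation gave 1 gene symbol to 23521 probe sets, several to 1814 and none to 16010. The brightest probe set over the 7 arrays stood for a gene. Of the members 49 had 1 probe set and 2 had more. The test was limma 3.58.1 (R 4.3.3), lmFit and eBayes, blastema against uninjured over all 7 arrays without covariate, two-sided, with Benjamini-Hochberg adjustment over 22180 genes. Intervals are 95% intervals of that fit. It was tested on simulated data. Motifs were searched on both strands of RefSeq promoter windows, the first listed window of each gene. Python 3.11.15 with matplotlib 3.10.9 made the figures.

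The members and lists were chosen with earlier results of these data known. Values on every array are given for the 4 highest and 4 lowest estimates of each list and for Mki67, Top2a, Pcna, Mcm2, Cdk1, Ccna2, Plk1 and Pola1; Slbp was added after its values were seen. Of the wider lists the called genes are named, and E2f8, Kif18b and Hmgb2 were added after their values were seen. The rule also takes the 2 largest changes of each marker list, of which Mmp9 and Krt2 are printed. Blastema values of single marrow and lymphocyte markers and Schwann cell markers were added after they were seen. Alternatives were a replicate block, filters on dim genes, other probe set, variance, weight and scaling settings, and leaving out arrays.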

Additional observations from a re-analysis of the deposited data

Results flagged for a closer look

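Among the 4 uninjured arrays, 11 of the 51 members had 1 array far from the other 3, by Dixon's ratio of the gap to the whole range at the 95% level. Chance flags about 1 in 20 such groups, and the members vary together, so these are not 11 separate observations. In 8 of them, all mitosis genes, uninjured array 1 was the low array. Mki67 was at 7.86 there beside 8.88 to 9.02, Anln at 6.88 beside 7.66 to 7.77, Cenpe at 6.06 beside 6.88 to 6.91 and Hmmr at 5.05 beside 5.58. The other 3 uninjured values of Hmmr were tied, so that its flag rests on a tie. Tpx2 was at 6.35 beside 6.85 to 6.89, Cenpf at 6.22 beside 6.66 to 6.73, Cenpa at 6.20 beside 6.50 to 6.53 and Ube2c at 6.23 beside 6.53 to 6.57.

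The other 3 were S phase genes. Mcm2 was high on uninjured array 2, at 7.15 beside 6.63 to 6.68. Fen1 was at 5.33 on uninjured array 2 beside 5.35 on the others, and Clspn at 5.92 on uninjured array 4 beside 6.08, so that both stand apart from values that are nearly or exactly tied.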

How the results depend on the processing

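Whether shared replicate numbers pair the arrays is not settled: deviations of same-numbered arrays correlated at 0.286, 0.151 and -0.065 across genes. Blastema arrays 1 and 2 correlated best with their own number, and blastema array 3 did not (0.14 with uninjured array 4). With a replicate block 295 genes were called higher and 304 lower over all genes, 2 mitosis genes higher (Ccnb2, 0.86, limma adjusted p = 0.0388, and Plk1, 0.76, 0.049), 0 lower in the wider S phase list and 0 higher in the wider mitosis list, and Ttk was at 0.03. Scaling to 8 reference genes, of which 3 were themselves called higher, moved the median of all genes to -0.40. Under it 511 genes were called higher and 12473 lower, 21 S phase, 7 mitosis, 28 wider S phase and 39 wider mitosis genes lower, and 0 wider mitosis genes higher. The S phase median was -0.55 and the mitosis median -0.17 (-0.15 and 0.23 relative to all genes), with Rrm2 at -0.14, Clspn at -0.31, E2f1 and Fen1 at -0.39, Mki67 at -0.17, Top2a at -0.38 and Cdk1 at -0.35. Median scaling put E2f1 and Fen1 at -0.03 and Top2a at -0.02, the mean of all probe sets Fen1 at -0.07, and array weights Top2a at -0.05. The filter at the 30th percentile, array weights and the background proxy each gave 1 mitosis gene higher (Plk1) and 2 in the wider mitosis list. Without both arrays numbered 1, 4 mitosis genes were higher (Ccnb2, Plk1, Ccna2 and Cenpe), 0 wider S phase genes lower, Bub1b at 0.03 and Top2a at -0.08.

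Leaving out 1 array at a time gave 457 to 1286 genes higher and 365 to 1009 lower over all genes, 0 to 3 mitosis genes higher (3 without blastema array 1), 0 to 1 wider S phase gene lower and 0 to 1 wider mitosis gene higher. The mitosis median ran from 0.06 (without blastema array 3 or uninjured array 1) to 0.39 (without blastema array 1), the S phase median from -0.25 to -0.08, and mitosis minus S phase from 0.29 to 0.48. In 18 of the 51 genes (7 S phase, 11 mitosis) the log2 fold change took both signs. Of those with values on every array it ran from -0.01 to 0.03 (E2f1), -0.46 to 0.10 (Anln), -0.13 to 0.03 (Bub1b), -0.22 to 0.10 (Nusap1), -0.19 to 0.15 (Ttk), -0.04 to 0.45 (Mki67), -0.27 to 0.21 (Top2a) and -0.02 to 0.13 (Cdk1). Except where fewer genes or arrays entered, the cause was not tested. Mitosis minus S phase was not run with the replicate block or array weights. The number of arrays limits what could be called.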
